A study of Homo sapiens with 9 samples.

Results

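The anti-HA peaks of A549 cells with HA-tagged BAZ2B were compared with those of untagged A549 cells. All rows on chromosomes 1 to 22 and X of the 2 deposited anti-HA peak lists were taken: 6788 from the tagged cells (HA-BAZ2B) and 2381 from the wild-type cells (WT). They make 9169 of the 27108 peaks in the 3 lists of the series. A549 is a human lung adenocarcinoma line. In the HA-BAZ2B group, the HA epitope had been inserted at the 5' end of the cells' own BAZ2B gene, and in the WT group no tag was present. Both groups had 3 replicates and received the same anti-HA antibody. The sources used here do not say whether the tagged line was 1 clone. The protocols also describe an siRNA transfection, which no label assigns to a library. The lists hold no expression values, so the identity of the line was not checked against markers.

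BAZ2B is a large bromodomain protein. Bromodomains bind acetylated lysines on histone tails, and BAZ proteins act as accessory subunits that guide ISWI-type ATPases, which slide nucleosomes. HA is a short peptide epitope that is absent from human cells, so an anti-HA profile of untagged cells measures what the antibody and the transposase give without their target. In CUT&Tag, the transposase is bound to the antibody through protein A and cuts nearby DNA. It also has some affinity for open chromatin of its own, which is why an untagged line is the usual control.

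Each group had 1 deposited list, which holds the peaks of 1 library that recurred in at least 2 replicates: replicate 3 for HA-BAZ2B and replicate 2 for WT, by the peak names. There is no value per replicate, so no share or median below has a replicate error, and no test between the lines could be made. Intervals are exact 95% binomial (Clopper-Pearson) intervals over peaks, which cover counting error only. Library depth is unknown. Peak numbers ran to 16278 in the HA-BAZ2B library and 9696 in the WT library, so that 43.2% and 25.3% of numbered peaks were listed. The names of the WT library carry a tag that those of the HA-BAZ2B library lack. What that tag marks was not stated, so a difference between runs cannot be told apart from one between lines.

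Most WT peaks had a counterpart in the longer list of the tagged cells, and most peaks of the tagged cells had none in the shorter WT list. A peak was called matched when it shared at least 1 bp with a peak of the other list. Of the WT peaks, 1934 (81.2%, 79.6 to 82.8%) were matched and 447 were not. Of the HA-BAZ2B peaks, 1946 (28.7%, 27.6 to 29.8%) were matched and 4842 were not. These 2 shares, 81.2% and 28.7%, are the background against which the shares of subsets below are read. Nearly all matches joined 1 peak to 1 peak, so both shares divide nearly the same number of matches by the length of their list. With both lists limited to the 2381 peaks of highest −log10 q, the shares were 32.4% (30.5 to 34.3%) for WT and 32.3% (30.4 to 34.2%) for HA-BAZ2B. That these are alike follows from the equal lengths and is not a result about the lines. With an overlap of at least 50% of both peaks required in the full lists, they were 34.9% for WT and 12.2% for HA-BAZ2B, and with summits at most 250 bp apart 45.0% and 15.8%. Allowing a gap of 1000 bp left them at 81.7% and 28.9%.

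The matches were almost all simple. Positions are given on hg19, counted from 1. The 2 lists formed 1953 overlapping pairs, of which 1901 joined 1 peak to 1 peak. Only 7 HA-BAZ2B peaks carried more than 1 WT peak, and 19 WT peaks carried more than 1 HA-BAZ2B peak, with 2 as the maximum on either side. At 19q13.2, for example, an HA-BAZ2B peak of 1779 bp (chromosome 19, 40948932 to 40950710) held WT peaks of 581 and 603 bp, 1 near each of its ends. The reverse case at 1q23.3 was a WT peak of 2295 bp (chromosome 1, 161431465 to 161433759) over HA-BAZ2B peaks of 1093 and 452 bp. The pairs that only just met the criterion shared 4 bp at 15q22.31, 14 bp at 2p23.3 and 22 bp at 11q12.3. The peaks that only just missed it lay 14 bp from the other list at 5q35.3 and 19 bp at 12q21.2.

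In the tagged cells, matched peaks were on the whole wider and of lower fold enrichment than unmatched peaks. The deposited fold enrichment is the authors' value per peak. Whether it is taken over the library's own background or over a control was not stated. It is not scaled between lists, so peaks were ranked within their list. The median width was 1304 bp for matched and 1195 bp for unmatched HA-BAZ2B peaks, with quartiles of 923 and 1669 bp and of 857 and 1515 bp. By width, 55.7% (53.4 to 57.9%) of the matched peaks lay in the upper 50% of their list, and by −log10 q 54.7% (52.5 to 57.0%). By fold enrichment only 45.7% did (43.5 to 47.9%), with medians of 7.86 for matched and 8.30 for unmatched peaks. All these differences are small beside the spread within each class.

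These directions depend on how a match is defined. Neither the 1 bp criterion nor one on summits is free of width. A wider peak has more bp that can meet the 1 bp criterion, and the distance between summits went with the width of the HA-BAZ2B peak. With matches defined by summits at most 250 bp apart, 39.7% (36.8 to 42.7%) of the matched HA-BAZ2B peaks were in the upper 50% by width and 53.3% (50.2 to 56.3%) by fold enrichment. Both directions were thus the opposite of those found with the 1 bp criterion. By −log10 q the share was 50.9% (47.9 to 54.0%) with the summit criterion, and 48.3% (44.9 to 51.8%) where the overlap had to reach 50% of both peaks.

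In the untagged cells, matched peaks were stronger and wider than unmatched ones. The median fold enrichment was 6.61 for the 1934 matched and 5.55 for the 447 unmatched WT peaks. The medians were 671 and 502 bp for width, and 11.1 and 7.12 for −log10 q. In the upper 50% of the WT list by fold enrichment lay 54.8% (52.6 to 57.0%) of the matched and 29.3% (25.1 to 33.8%) of the unmatched peaks. By −log10 q these shares were 55.1% and 28.0%. The direction by fold enrichment was the same with the summit criterion (55.6% of matched peaks), but that by width turned to 46.5%.

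**Figure D1:**
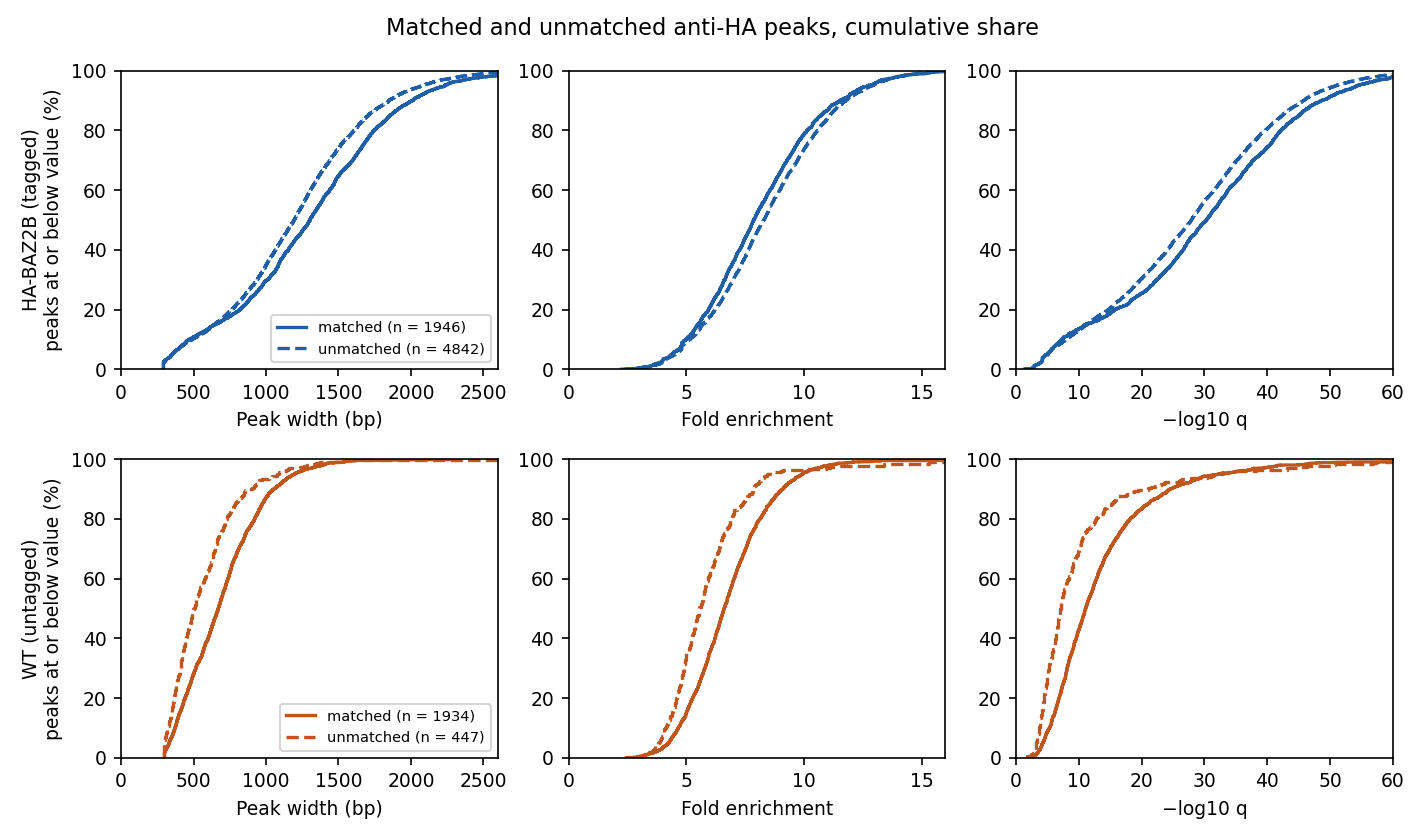
Cumulative share of peaks (vertical axis, %) at or below a given width (bp), fold enrichment or −log10 q (horizontal axes, which end before the highest values). Solid lines are matched and dashed lines unmatched peaks, with HA-BAZ2B in the upper and WT in the lower row. The pair of lines lies close together for HA-BAZ2B. Over most of the range, its matched line is to the right for width and to the left for fold enrichment. For WT the lines lie farther apart, with the matched line to the right over most of each range.

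The share of WT peaks with a tagged-line counterpart went up over most of the WT list's range, while the share of HA-BAZ2B peaks with a WT counterpart moved within a narrower range. With each list divided into 10 groups of nearly equal number, the WT share by fold enrichment ran from 66.8% (60.4 to 72.8%) in the lowest group to 92.1% (87.9 to 95.1%) in the highest. By −log10 q it ran from 55.9% (49.3 to 62.3%) to 92.0% (87.8 to 95.1%) in group 9, and was 85.4% (80.2 to 89.6%) in group 10. The intervals of groups 9 and 10 overlap. Of the 50 WT peaks with the highest −log10 q, 38 were matched (76.0%, 61.8 to 86.9%), an interval that includes the 81.2% over all WT peaks. Of the 100 and 250 highest, 82.0% and 86.0% were matched.

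For HA-BAZ2B, the share by −log10 q was 31.3% (27.8 to 34.9%) in the weakest group, 21.2% (18.2 to 24.5%) in group 3 and 35.9% (32.3 to 39.7%) in the strongest group. By width it was 29.6% in the narrowest group, 23.7% in group 3 and 38.6% (34.9 to 42.4%) in the widest. By fold enrichment it was highest in group 2, at 33.7% (30.2 to 37.4%), and lowest in group 9, at 22.1% (19.0 to 25.4%). Among the 1000 HA-BAZ2B peaks with the highest −log10 q, 348 were matched (34.8%, 31.8 to 37.8%).

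**Figure D2:**
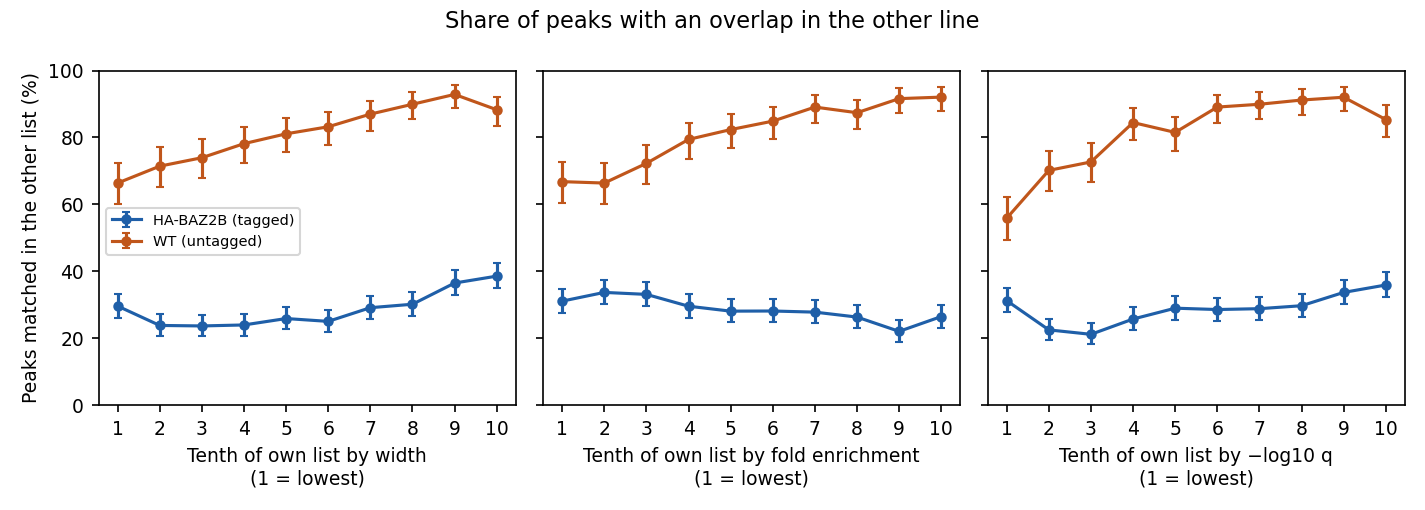
Share of peaks matched in the other list (vertical axis, %) in 10 groups of each list by width, fold enrichment and −log10 q, where group 1 is the lowest and group 10 the highest. Points are shares and bars exact 95% binomial intervals. The WT share by fold enrichment is lowest in group 2, at 66.4%, and highest in group 10, at 92.1%. The HA-BAZ2B share stays between 21.2 and 38.6% in every group of the 3 panels.

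Width and fold enrichment were not independent within the lists. Their Spearman correlation across peaks was -0.24 over the 6788 HA-BAZ2B peaks and 0.17 over the 2381 WT peaks, given as a description since peaks of a list share 1 library. With both measures divided into 3 groups, the HA-BAZ2B match share was 35.0% (32.2 to 37.8%) for wide peaks of low fold enrichment, 34.5% for wide peaks of middle and 33.0% for wide peaks of high fold enrichment. Narrow peaks had 30.8% at low, 21.6% at middle and 22.4% at high fold enrichment. For WT, the share went from 60.1% (54.7 to 65.3%) for narrow peaks of low fold enrichment to 94.1% (90.9 to 96.5%) for wide peaks of high fold enrichment.

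In a matched pair, the WT peak was usually a shorter segment inside the HA-BAZ2B peak. Over the 1901 one-to-one pairs, the WT peak lay wholly within its partner in 56.7% (54.4 to 58.9%), and the reverse held in 7.47% (6.33 to 8.74%). The ratio of WT to HA-BAZ2B width had a median of 0.523, with quartiles of 0.383 and 0.753. The whole lists differed in the same direction. With each list in 10 groups by width, group 5 ended at 639 bp for WT and 1219 bp for HA-BAZ2B. Unmatched WT peaks were also narrower than unmatched HA-BAZ2B peaks, with medians of 502 and 1194.5 bp. The width difference within pairs can therefore not be told apart from that between the lists. The WT peak covered a median of 48.8% of the HA-BAZ2B peak. A point near the middle of the HA-BAZ2B peak was inside the WT peak in 69.3% of pairs, and points near its ends in 28.6% and 30.1%. A shorter segment placed at random inside a longer one also covers its middle more often than its ends. The profile therefore cannot tell whether WT peaks were centred. With pairs in 4 groups by HA-BAZ2B width, the WT summit lay between 40 and 60% of that width in 24.6 to 28.4% of pairs.

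This relation differed between HA-BAZ2B peaks of low and high −log10 q, which also differed in width. Among pairs whose HA-BAZ2B peak was in the weakest of the 10 groups by −log10 q, the WT peak was the wider one in 82.5%, and the median ratio of WT to HA-BAZ2B width was 1.43. In group 10 the WT peak was wider in 1.23%, and the ratio was 0.517. In the HA-BAZ2B list, −log10 q went with width (Spearman correlation 0.42 over the 6788 peaks). With the 10 groups made by width, the WT peak was wider in 86.6% of pairs in the narrowest group, with a ratio of 1.56. In the widest group it was wider in 0%, with a ratio of 0.384. The difference by −log10 q can therefore not be told apart from one by width. The WT partners had a median percentile of −log10 q of 53.4 in the weakest and 53.0 in the strongest group. Their median percentile was 46.6 and 56.3 by fold enrichment, and 48.6 and 54.9 by width.

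**Figure D3:**
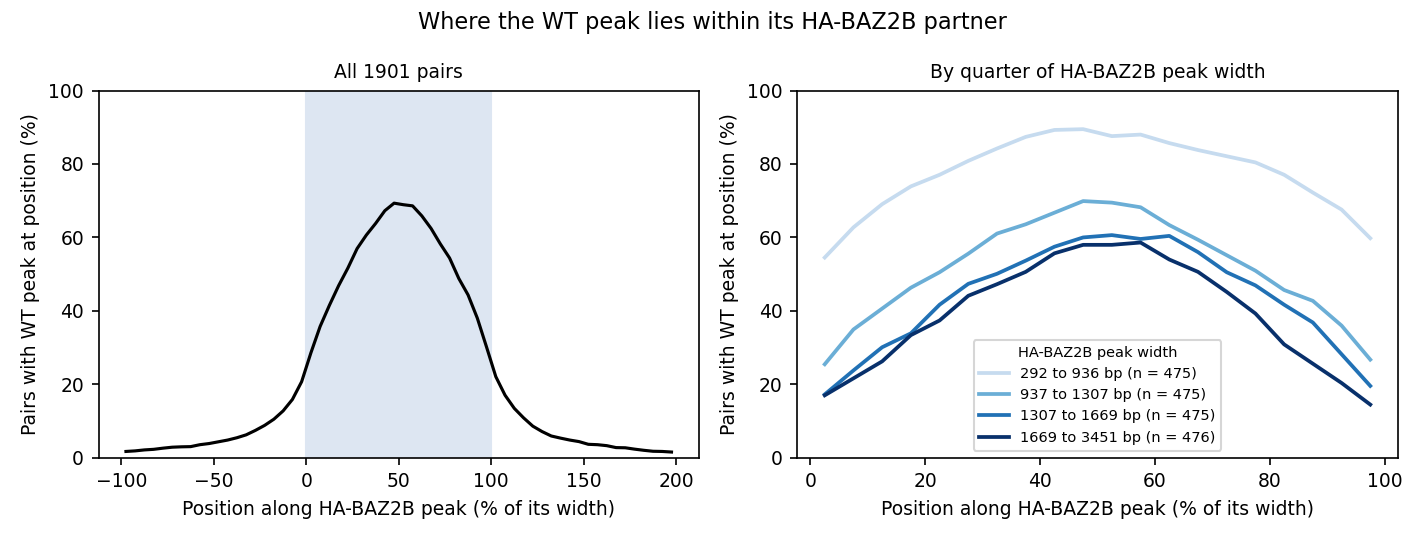
Share of one-to-one pairs in which the WT peak covers a position (vertical axis, %) along the HA-BAZ2B peak, scaled to its width (horizontal axis, 0 to 100%). The left panel holds all 1901 pairs, with the HA-BAZ2B peak shaded, and the right panel the pairs in 4 groups by HA-BAZ2B width. Coverage is highest near the middle, at 69.3% over all pairs, 89.5% for the narrowest group and 58.6% for the widest. A shorter segment placed at random inside a longer one also covers its middle more often than its ends.

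Summits, the points of highest signal, lay a median of 175 bp apart in the one-to-one pairs (154 to 203 bp, binomial interval of the median over pairs), with quartiles of 53 and 460 bp. They were at most 50 bp apart in 24.0% of pairs and more than 500 bp apart in 20.3%. The WT summit fell inside the HA-BAZ2B peak in 96.5% of pairs, and the HA-BAZ2B summit inside the WT peak in 73.4% (71.4 to 75.4%). The distance went with the width of the HA-BAZ2B peak, by which the pairs were divided into 4 groups. Its median was 70 bp (61 to 81 bp) for the narrowest group, up to 936 bp wide, and 469 bp (435 to 494 bp) for the widest, from 1669 bp. As a share of the width, this was 13.3% and 24.2%. In the widest group, the 2 summits lay on opposite sides of the middle of the HA-BAZ2B peak in 50.0% of pairs (45.4 to 54.6%). This is about the share that unrelated sides would give. In the narrowest group it was 36.2% (31.9 to 40.7%).

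Over all widths, the place of the summit within its own peak was nearly alike for matched and unmatched peaks. The summit offset, counted from the start of the peak, was a median of 0.490 times the width for matched and 0.489 times for unmatched HA-BAZ2B peaks, and 0.491 and 0.485 times for WT. The summit fell in the central 20% of the peak in 40.8% (38.6 to 43.0%) of matched and 42.6% (41.2 to 44.1%) of unmatched HA-BAZ2B peaks. For WT these shares were 42.8% (40.5 to 45.0%) and 43.0% (38.3 to 47.7%). Within groups of like width it was less so for narrow WT peaks. In the narrowest of 3 groups, up to 510 bp, the summit was central in 60.1% (55.9 to 64.1%) of matched and 51.1% (44.4 to 57.8%) of unmatched WT peaks, with intervals that overlap. In the middle group these shares were 36.9% and 35.7%, and in the widest 34.4% and 32.5%. In bp, the offset of WT peaks was a median of 280 for matched and 236 for unmatched ones, beside their difference in width.

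The ranks of paired peaks were loosely related. Across the 1901 pairs, which share their 2 libraries, the Spearman correlation was 0.29 for width, 0.14 for fold enrichment and -0.026 for −log10 q. The pairs were both in the upper 50% of their lists by −log10 q in 29.8% and both in the lower 50% in 19.2%. Pairs in which only HA-BAZ2B was in the upper 50% made up 25.8%, and those in which only WT was 25.2%. Partners of the WT peaks in the highest of the 10 groups by fold enrichment had a median HA-BAZ2B percentile of 53.8, with quartiles of 29.0 and 79.6. Partners of the lowest group had 27.2, with quartiles of 9.55 and 58.0.

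The matched HA-BAZ2B peak with the highest −log10 q lay at 2p25.3 (chromosome 2, 740001 to 740973). Its fold enrichment was 14.7 and its −log10 q 103.5. Its WT partner had 13.3 and 37.7, and the summits were 50 bp apart. The next, at 19q13.2 (chromosome 19, 40022654 to 40023734), had 14.3 and 79.0, but its WT partner stood at the 43.5 percentile of the WT list by fold enrichment. The following 3, at 19p12, 14q11.2 and 22q11.1, had WT partners at the 65.4, 34.7 and 42.4 percentiles. By −log10 q, these 5 WT partners stood, in the same order, at ranks 82, 1456, 1468, 1179 and 1130 of the 2381 WT peaks.

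The 5 pairs with the highest −log10 q in the WT list had HA-BAZ2B partners of low −log10 q but of mixed fold enrichment. At 12p13.33 (chromosome 12, 2629186 to 2630152) the WT peak had a −log10 q of 198.9, the highest of its list, and a fold enrichment of 13.2. The HA-BAZ2B peak inside it was 355 bp wide, with a −log10 q of 4.19 and a fold enrichment percentile of 7.66. The WT peak at 1p11.2 (chromosome 1, 121484132 to 121485473), with a −log10 q of 175.2, held an HA-BAZ2B peak with 22.9, at the 89.6 percentile of its list by fold enrichment. The remaining 3 lay at the ends of chromosomes, at 12q24.33, Xq28 and 1p36.33, with HA-BAZ2B percentiles by fold enrichment of 60.5, 93.9 and 23.2. By −log10 q, the 5 HA-BAZ2B peaks stood at percentiles from 3.33 to 35.2. In all 5 pairs the HA-BAZ2B peak was narrower than the WT peak and lay within it.

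Of the 5 pairs with the largest difference of fold rank in favour of HA-BAZ2B, 3 lay on chromosome 19, which held 189 of the 1946 matched HA-BAZ2B peaks. They were at 19q13.2 (chromosome 19, 39321745 to 39322494, and 40909611 to 40910535) and 19q13.42 (56135650 to 56136326). The others were at 17q12 (chromosome 17, 37606778 to 37607845) and 3p21.31 (chromosome 3, 49044607 to 49045748). Fold enrichment in these pairs was 11.8 to 15.5 in the HA-BAZ2B list, at percentiles from 90.3 to 99.6, and 3.41 to 4.31 in the WT list, at percentiles from 1.39 to 7.24. In the other direction, the 5 pairs were at 6p25.1, 1q42.3, 7q21.3, 1p36.13 and 18p11.32, with HA-BAZ2B percentiles of 0.59 to 7.66 against WT percentiles of 94.8 to 99.5. The pairs were selected by this difference, so it is a description of the extremes and not a result of a test.

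**Figure D4:**
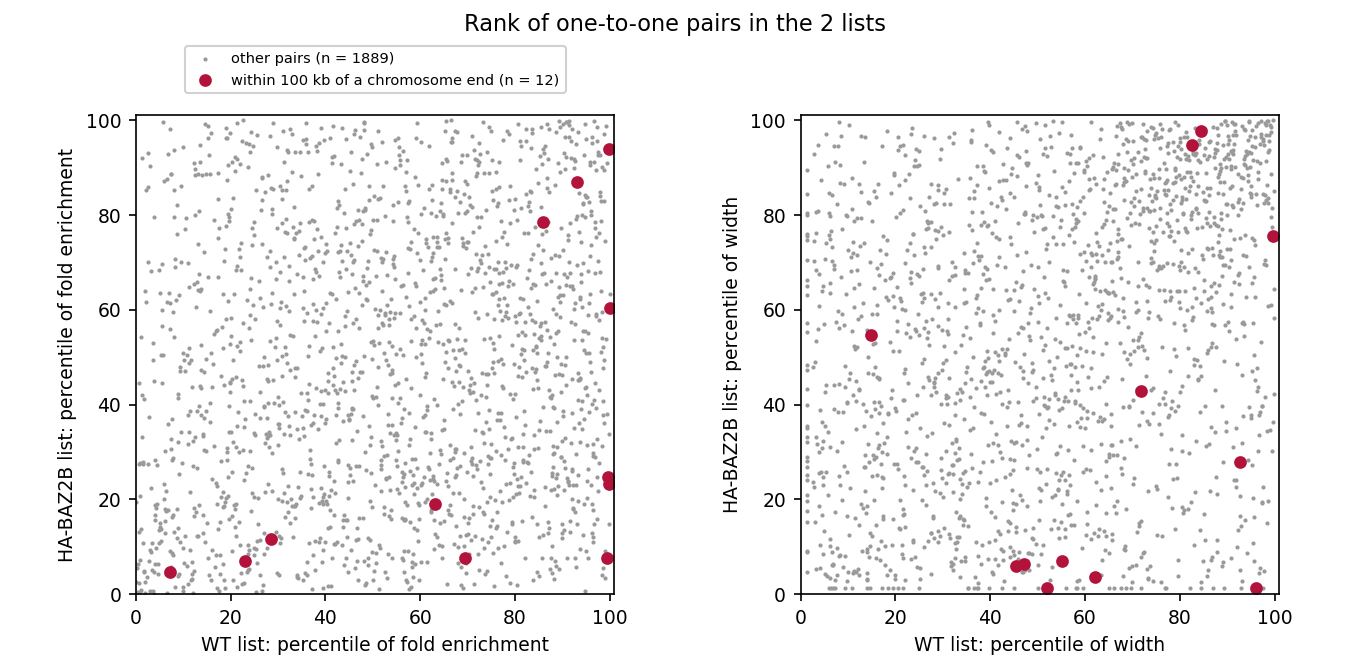
Percentile of a one-to-one pair in the HA-BAZ2B list (vertical axis) against its percentile in the WT list (horizontal axis), by fold enrichment (left) and width (right), with 1 point per pair. Red points are the 12 pairs within 100 kb of a chromosome end. Points fill both panels, with a Spearman correlation of 0.14 for fold enrichment and 0.29 for width, and several red points lie at the far right and low.

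Most WT peaks near the ends of chromosomes ranked high in the WT list by −log10 q. Chromosome ends carry telomeric repeats, whose G-rich strand is a well-known former of G-quadruplexes. These sites were looked at after the strongest pairs had been seen. Within 100 kb of an end lay 21 of 2381 WT peaks (0.882%) and 25 of 6788 HA-BAZ2B peaks (0.368%). Among the 239 WT peaks in the highest group by −log10 q there were 14 (5.86%, 3.24 to 9.63%), and among the other 2142 WT peaks 7 (0.327%, 0.131 to 0.672%). For HA-BAZ2B, the corresponding counts were 4 of 679 (0.589%) and 21 of 6109 (0.344%).

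The outermost WT peaks lay within 11 kb of the end on 12 chromosome arms, each with 1 peak. Of these 12, 6 were matched, at 1p36.33, 1q44, 5p15.33, 12q24.33, 18p11.32 and Xq28. In the WT list, the fold enrichments at these 6 sites were 18.2, 18.2, 6.99, 24.2, 15.7 and 18.8. In the HA-BAZ2B list, in the same order, they were 6.41, 6.52, 6.05, 8.89, 4.81 and 12.5. WT ranked higher within its list at all 6 sites, by fold enrichment and by −log10 q. Of all 1901 one-to-one pairs, it did so in 55.3% by fold enrichment and 49.7% by −log10 q. The count at the 6 sites is a description with no test, since sites among these prompted the look at chromosome ends by their high WT rank. The summits at these 6 sites were 13 to 108 bp apart. The 6 HA-BAZ2B peaks within 11 kb of an end were the partners of these WT peaks, with a −log10 q of 4.19 to 22.6.

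The 6 outermost WT peaks without a listed HA-BAZ2B peak were at 4p16.3, 7p22.3, 9p24.3, 10q26.3, 15q26.3 and 21q22.3. Their fold enrichments were 13.2, 17.8, 4.01, 10.9, 13.4 and 8.10. All but that at 9p24.3, the narrowest of the 12 at 360 bp, stood at the 82.0 percentile of the WT list by fold enrichment or higher.

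Most unmatched peaks lay more than 10 kb from any peak of the other list. For HA-BAZ2B, the median distance to the nearest WT peak was 218 kb, with quartiles of 71.6 and 582 kb. Only 19 of the 4842 (0.392%) lay within 1 kb, and 152 (3.14%) between 1 and 10 kb. For unmatched WT peaks the median distance was 82.6 kb, and 11 of 447 (2.46%) lay within 1 kb. These distances depend on how many peaks the other list holds, so those of the 2 lists cannot be compared. The few unmatched HA-BAZ2B peaks close to a WT peak were of lower fold enrichment, with a median of 4.55 within 1 kb and 7.84 from 1 to 10 kb. Farther away the medians differed little, at 8.33 from 10 to 100 kb, 8.37 from 100 kb to 1 Mb and 8.18 beyond 1 Mb.

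The unmatched HA-BAZ2B peaks with the highest −log10 q were at 19q13.2 (chromosome 19, 42829463 to 42830664), with 85.4, and at 12p13.33 (chromosome 12, 73959 to 75102), with 83.8. They were followed by 20p13 (chromosome 20, 523510 to 524709), with 77.6, 19q13.2 (chromosome 19, 40476431 to 40477875), with 75.5, and a second site at 20p13 (chromosome 20, 1757330 to 1758125), with 73.2. Their fold enrichments were 10.9 to 17.6 and their widths 796 to 1445 bp. The nearest WT peak was 19.9 kb away at 12p13.33, and this WT peak (chromosome 12, 95016 to 95804) was itself the unmatched WT peak with the highest −log10 q, at 100.1. Unmatched sites of both lines that rank high in their lists thus lay close together near this end of chromosome 12.

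The widest unmatched HA-BAZ2B peaks were of low fold enrichment. The peak at 8p12 (chromosome 8, 29204650 to 29208140) was 3491 bp wide with a fold enrichment of 2.85, and that at 12q13.11 (chromosome 12, 47471236 to 47474552) was 3317 bp wide with 3.70. At 8q24.21 (chromosome 8, 128748095 to 128751342), 2p22.3 (chromosome 2, 36582418 to 36585546) and 20q13.13 (chromosome 20, 48807294 to 48810390), widths were 3248, 3129 and 3097 bp and fold enrichments 3.24, 4.43 and 4.20. All 5 were in the lowest 5% of the list by fold enrichment.

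Among unmatched WT peaks, the highest −log10 q after 12p13.33 were found at 18p11.32 (chromosome 18, 107854 to 109364), with 75.9, and 1p36.33 (chromosome 1, 567273 to 567835), with 73.1. The next were at 10q11.21 (chromosome 10, 42529201 to 42529860), with 69.8, and 17p11.2 (chromosome 17, 22020536 to 22020991), with 67.2. The 1p36.33 site lies in a stretch known to hold a nuclear copy of mitochondrial DNA, and WT had another unmatched peak in it (564717 to 565331), with a −log10 q of 31.9. Centromere bands held 12 of the 447 unmatched WT peaks (2.68%, 1.39 to 4.64%) and 11 of the 1934 matched ones (0.569%, 0.284 to 1.02%). For HA-BAZ2B they held 23 of 4842 unmatched (0.475%) and 11 of 1946 matched peaks (0.565%). The widest unmatched WT peaks included 2 next to centromeres, at 6p11.1 with 3075 bp and 2p11.1 with 1493 bp.

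An unmatched peak may still coincide with a peak of the other library that did not recur and was not listed. The peak numbers limit this. They increase along each list in genome order, so that 2 neighbouring listed peaks with consecutive numbers had no other called peak between them in that library. Between such WT neighbours lay 118 of the 4842 unmatched HA-BAZ2B peaks (2.44%, 2.02 to 2.91%), and no called peak of the WT library overlapped them. A listed WT peak could still lie close by, as at 12q21.2, 19 bp away. The 118 peaks had a median fold enrichment of 8.40, against 8.30 for the other unmatched peaks, and a median width of 974 against 1199 bp. Their median −log10 q was 25.4, against 28.0 for the others. In some intervals more unmatched HA-BAZ2B peaks lay between 2 listed WT peaks than WT numbers were missing. The surplus there had no overlapping WT call either, if each missing WT peak met at most 1 of them. By this count at least 548 unmatched HA-BAZ2B peaks (11.3%) had no overlapping call in the WT library. For the others, the number of missing WT peaks in the interval was too high to tell, with a median of 5 over all unmatched peaks.

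Calls in the other WT replicates cannot be seen from these numbers. The 118 sites included some HA-BAZ2B peaks of high −log10 q, although the median of the 118 was below that of the other unmatched peaks. The highest by −log10 q was at 17q11.2 (chromosome 17, 28804352 to 28805111), at 63.9. Its fold enrichment was 15.9, and the flanking WT peaks were 255 kb apart. Next came 16p11.2 (chromosome 16, 30216974 to 30218826), with 56.0, 12q13.2 (chromosome 12, 56551977 to 56553428), with 55.7, 20p13 (chromosome 20, 3826957 to 3828318), with 53.5, and 1q24.2 (chromosome 1, 167690736 to 167692061), with 52.9. In the reverse direction, 73 of the 447 unmatched WT peaks (16.3%, 13.0 to 20.1%) had no overlapping call in the HA-BAZ2B library, and at least 84 by the surplus count. They included both 1p36.33 peaks and the one at 17p11.2 (22020536 to 22020991), as well as 6q25.3 (chromosome 6, 157731479 to 157732103) and 17p11.1 (chromosome 17, 22252921 to 22253397). The higher share for WT was not compared further, since 47.5% of neighbouring HA-BAZ2B peaks and 29.4% of neighbouring WT peaks have consecutive numbers, and the share depends on that.

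The share of HA-BAZ2B peaks at WT sites differed between chromosomes. It was highest on chromosome 19, with 189 of 475 (39.8%, 35.4 to 44.3%), followed by 17 with 34.7% (30.7 to 39.0%) and 15 with 34.2%. It was lowest on chromosome 6, with 62 of 325 (19.1%, 15.0 to 23.8%), on X with 19.4% (14.1 to 25.6%) and on 18 with 19.5% (11.6 to 29.7%). The share of WT peaks at HA-BAZ2B sites was also highest on chromosome 19, at 89.6% (84.6 to 93.3%). It was lowest on 18, at 68.2% (45.1 to 86.1%), X, at 69.8% (55.7 to 81.7%), and 4, at 70.4% (56.4 to 82.0%). The intervals of 18, X and 4 include the 81.2% over all chromosomes, as does that of 17 (77.8%, 71.9 to 83.0%). Chromosome 7, with 85 of 118 (72.0%, 63.0 to 79.9%), had the only interval below it.

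**Figure D5:**
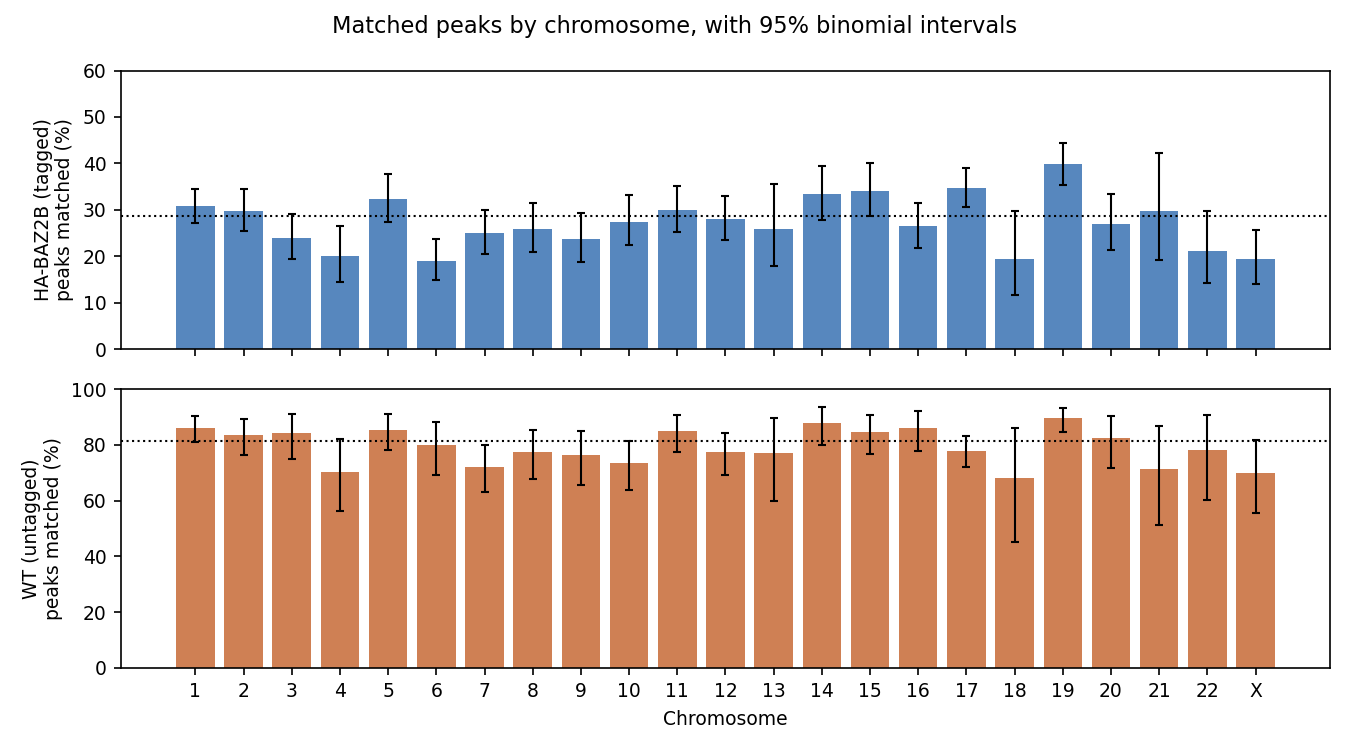
Share of peaks matched in the other list (vertical axis, %) on each chromosome, for HA-BAZ2B (upper) and WT (lower). Bars are shares, error bars exact 95% binomial intervals, and the dotted line the share over all chromosomes (28.7 and 81.2%). The interval of chromosome 19 lies above the line in both panels, and that of 17 in the upper panel. Those of chromosomes 4, 6 and X lie below it in the upper panel, and that of 7 in the lower panel.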

How the data were processed

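Anti-HA CUT&Tag was done in 3 HA-BAZ2B and 3 WT replicates of A549 cells. The submitters' processing notes name Bowtie2 2.4.5, Picard, SAMtools 1.15.1, bedtools, MACS2 2.1.4 and the builds hg19 and dm6. MACS2 settings, its control and any spike-in scaling were not stated. Per the labels, the authors kept peaks found in 2 or more replicates, with the largest peak file as the base. The deposited fold enrichment is a ratio, the deposited significance is a −log10 q value, and positions in bp are as deposited. Depth is unknown, so peak numbers are not adjusted for it.

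Chromosomes 1 to 22 and X of both lists were used. Overlaps, ranks and exact 95% binomial intervals were computed in Python 3.11.15 (scipy 1.17.1 for the intervals, pandas 2.3.3 and numpy 2.4.6 for the tables), and bands and chromosome lengths of hg19 came from circlize 0.4.16 and GenomeInfoDb 1.38.1. Matching was tested on simulated lists. Named sites were the highest by −log10 q, width or rank difference in each class, those with several partners, those between consecutive peak numbers and those nearest the match criterion. The comparison and these rules were chosen with earlier results of these data known. Alternatives were other overlaps, a summit distance, a −log10 q of at least 5, equal list lengths and omission of chromosome X. No genome of the build was used, so no sequences or genes are given.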

Additional observations from a re-analysis of the deposited data

How the results depend on the processing

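Of 82 values for 14 results under 9 alternatives, 54 stayed within the interval of the reported value (rank correlations, within 1.5 times), 20 moved and 8 turned direction. Omission of chromosome X, a gap of 1000 bp, and omission of peaks near chromosome ends and centromeres, chosen after seeing the data, moved none.

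The matched share of HA-BAZ2B peaks was 13.8% with overlap of 50% of the peak's own width, 12.2% with 50% of both, 15.8% with summits within 250 bp, 26.2% with −log10 q of at least 5 and 32.3% with lists of equal length. For WT it was 75.6, 34.9 and 45.0% under the first 3, and 32.4% with equal length. The share of matched HA-BAZ2B peaks in the upper 50% by width was 33.9, 38.1 and 39.7% under the first 3, all turned, and 59.9% with equal length. By fold enrichment it was 49.0%, then 54.5 and 53.3%, both turned, and 42.3%. By −log10 q it was 43.2 and 48.3%, both turned, and 50.9%. For WT, it was 68.6% by width, 59.3% by fold enrichment and 64.6% by −log10 q with 50% of both, 46.5% by width with summits, turned, and 57.8% by fold enrichment with equal length. With equal length the summit distance was 211 bp and the fold correlation 0.045. With −log10 q of at least 5 the −log10 q correlation was -0.043. The causes were not tested.

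No paired analysis was possible because the lists hold no value per replicate. No replicate was left out for the same reason. The recurrence filter and the unknown depth limit every share.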
